A study of Mus musculus with 8 samples.

Results

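The clustered histone genes are the replication-dependent genes of the linker histone H1 and the core histones H2A, H2B, H3 and H4. Members were taken by symbol from the gene tables, as *H1f1* to *H1f6*, every gene named *H2ac*, *H2bc*, *H3c* or *H4c* with a number, and *H2aw*. This gave 65 of 32227 genes, of which 6 code for H1, 18 for H2A, 17 for H2B, 12 for H3 and 12 for H4. UMIs (unique molecular identifiers) each count 1 captured mRNA molecule. The group was chosen by measured values, since its microglial UMIs had been seen to differ between inhibitor and DMSO libraries and in their response to lipopolysaccharide (LPS). The values of the members in those contrasts are therefore given as a description. Where members passing a threshold in those contrasts are counted, nothing is read from the count, whether over all members or a family.

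CD45+ cells, the leukocytes of the brain and its vessels, were enriched magnetically from the non-perfused brains of male C57Bl/6J mice labelled as 5 to 6 months old. The mice had received saline or LPS (1.5e+07 EU/kg, intraperitoneal), a component of the bacterial outer membrane that provokes systemic inflammation, 24 h earlier. Each brain was dissociated either with DMSO, the vehicle, or with a mixture of actinomycin D and triptolide, which block transcription, and anisomycin, which blocks translation. Crossing both treatments gave 4 groups with 2 libraries in each, and replicate numbers 1 and 2 marked the batch. All groups went through the same enzymatic dissociation, so no group shows cells that were not dissociated.

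Most mRNAs end in a poly(A) tail, whereas replication-dependent histone mRNAs mostly end in a stem-loop bound by SLBP and are made in bulk during S phase, when new DNA has to be packed. A minor polyadenylated form of these mRNAs occurs in many differentiated cells. Core histones form the octamer around which DNA winds, and H1 binds the linker DNA between octamers. Microglia, the resident macrophages of the brain, divide rarely in the adult. The capture oligonucleotides used here bind poly(A), so the counts describe what such a capture recovers of these mRNAs.

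The members lay on chromosome 13 (53 genes), chromosome 3 (10 genes) and chromosome 11 (*H2aw*), and *H2bc24* was not placed. Of them, 27 shared over 50% of their 50-base stretches with another member, so reads may have been split between copies and their single values are uncertain. *H2ac19* shared 100% of these stretches, *H2ac18* 89.2%, *H2ac23* 93.5% and *H2ac24* 93.1%. RefSeq promoters (GRCm38.p6, a different build from that of the counts) were at hand for 59 members.

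Promoter stretches are shown for 3 linker histone genes and 2 H2B genes that were far lower in inhibitor than DMSO libraries. Each is on the strand of its gene and ends 21 bases (the linker histone genes) or 1 base (the H2B genes) before the annotated start. Each carries in capitals, on either strand, any match to TATAAA, the promoter element CCAAT, the octamer ATTTGCAT or the H1 box AAACACA.
H1f2, chr13:23738677-23738786, + strand: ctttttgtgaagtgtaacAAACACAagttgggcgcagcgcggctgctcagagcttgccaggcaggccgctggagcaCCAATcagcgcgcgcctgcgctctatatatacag
H1f3, chr13:23554902-23555011, + strand: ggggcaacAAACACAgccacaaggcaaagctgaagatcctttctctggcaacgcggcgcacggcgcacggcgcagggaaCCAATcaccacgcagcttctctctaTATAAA
H1f4, chr13:23622579-23622688, - strand: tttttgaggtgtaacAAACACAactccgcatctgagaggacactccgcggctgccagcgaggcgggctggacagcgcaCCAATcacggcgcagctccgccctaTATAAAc
H2bc8, chr13:23571290-23571399, + strand: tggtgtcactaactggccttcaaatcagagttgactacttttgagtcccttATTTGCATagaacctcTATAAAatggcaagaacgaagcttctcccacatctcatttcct
H2bc12, chr13:22035711-22035820, + strand: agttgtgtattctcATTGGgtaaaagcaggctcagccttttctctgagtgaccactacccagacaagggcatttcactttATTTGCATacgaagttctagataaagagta

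In the 3 linker histone stretches the H1 box lay 112 (*H1f2*), 122 (*H1f3*) and 115 (*H1f4*) bases before the start. The octamer lay 59 bases before the start of *H2bc8* and 30 bases before that of *H2bc12*. Over the 250 bases before the start, both strands searched and motifs allowed to overlap, AAACACA occurred in 5 of 6 H1 windows and in 6.25% of all 32851 promoter windows. ATTTGCAT occurred in 7 of 18 H2A and 7 of 15 H2B windows, in 0 of 10 H3 and 0 of 11 H4 windows, and in 1.60% of all windows. CCAAT occurred in 50 of the 60 member windows against 33.9% of all, and TATAAA in 28 of 60 against 12.4%. A match is a run of letters and not a bound site.

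The paired genes *H2ac18* and *H2ac19* face away from each other on chromosome 3 and had an identical stretch of 169 bases across their promoters, part of which is shown on the strand of *H2ac18*, with no letters marked, because their counts are discussed together.
H2ac18, chr3:96245347-96245456, + strand: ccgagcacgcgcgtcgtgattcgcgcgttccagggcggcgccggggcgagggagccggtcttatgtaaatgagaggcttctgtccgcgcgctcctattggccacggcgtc

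After cells with at least 800 and under 45000 UMIs, at least 250 and under 6500 genes and under 5% mitochondrial UMIs were kept, 12039 to 17364 cells remained per library, from 90352359 to 141182123 UMIs in all, and no 2 libraries shared more than 25 cell barcodes. A marker gate found 93635 microglia, 8943 to 14230 in each library. Their 14 microglial marker genes summed to 49845 to 54020 CPM (UMIs per 1e+06 UMIs) in saline libraries and 15082 to 19027 in LPS libraries. Choroid plexus markers summed to 2333 to 10865 CPM in microglia of saline mice and 424 to 851 in those of LPS mice, and neutrophil markers to 397 to 1409 and 442 to 593. B-cell markers summed to 466.1 to 649 and 89.9 to 103, T-cell markers to 29.3 to 54.03 and 2.99 to 4.86, and NK cell markers to 13.1 to 34.8 and 3.86 to 6.14. Between 15.5% and 33.7% of a library's UMIs lay in barcodes with 1 to 99 UMIs, too few for a cell. The part of these differences in the results below was not tested.

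In total, 101743 member UMIs were counted in microglia, and 62 members passed the filter on low counts. The exceptions were *H3c3*, *H1f6* and *H2ac1*. The 12 members with the most UMIs held 83.8% of this sum, and *H2bc4*, *H1f2*, *H2ac18* and *H2ac19* alone held 64.3%. The cells counted as cycling held 3.28% of the member UMIs and 0.906% of all microglial UMIs, so most of these molecules came from cells that did not meet the cycling rule.

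Microglial levels by library are given in CPM scaled by TMM (a factor per library that brings the typical gene to 1 level) and are not divided by gene length. The 65 members summed to 417 and 529 in saline DMSO, 191 and 241 in saline inhibitors, 293 and 528 in LPS DMSO, and 49.3 and 59.1 in LPS inhibitors. Both LPS inhibitor libraries were the lowest, and the saline and LPS DMSO libraries overlapped. In CPM without TMM the DMSO libraries did not overlap, at 600 and 649 in saline and 228 and 406 in LPS mice. From these sums alone, fewer cells holding the mRNA and less mRNA per cell cannot be told apart, and values per cell are not given here.

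The linker histones bind DNA between nucleosomes, and *H1f2* carried most of their UMIs. *H1f2* was at 134 and 160 in saline DMSO, 20.4 and 28.8 in saline inhibitors, 26.4 and 72.1 in LPS DMSO, and 1.56 and 2.27 in LPS inhibitors. In both treatments the DMSO libraries lay above the inhibitor libraries without overlap, and the LPS DMSO pair spread widely. DMSO over inhibitors gave a log2 fold change of 2.58 ± 0.38 (SE, n = 2 per group) in saline and 4.68 ± 0.44 in LPS mice. By batch these were 2.71 and 2.47 in saline and 4.08 and 4.99 in LPS mice.

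*H1f3*, another linker histone, was at 12.6 and 10.6 in saline DMSO, 0.508 and 0.574 in saline inhibitors, 2.48 and 5.83 in LPS DMSO, and 0.208 and 0.186 in LPS inhibitors. Its log2 fold change of DMSO over inhibitors was 4.43 ± 0.40 in saline and 4.37 ± 0.44 in LPS mice. *H1f4* was at 6.17 and 4.95, 0.987 and 1.15, 4.77 and 6.53, and 0.875 and 0.910 in the same order of groups. For *H1f4* the groups on the TMM scale split mainly by the ex vivo agent, with log2 fold changes of 2.39 ± 0.27 and 2.65 ± 0.27. LPS over saline was 0.02 ± 0.24 in DMSO and -0.25 ± 0.28 in inhibitors. In CPM without TMM the LPS libraries also lay below the saline libraries of the same agent.

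Among the genes for H2B, which pairs with H2A in the nucleosome, *H2bc4* had the most UMIs of all members. It was at 86.9 and 112 in saline DMSO, 58.5 and 75.6 in saline inhibitors, 46.3 and 75.8 in LPS DMSO, and 4.16 and 5.33 in LPS inhibitors. The LPS inhibitor libraries stood below every other library. The saline inhibitor and LPS DMSO libraries overlapped on the TMM scale, whereas in CPM without TMM both LPS DMSO libraries lay below both saline inhibitor libraries. LPS over saline was -0.71 ± 0.24 on the log2 scale in DMSO and -3.82 ± 0.27 in inhibitors. Within batches the 2 DMSO values were -0.91 and -0.56 and the 2 inhibitor values -3.81 and -3.83.

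*H2bc8* and *H2bc12*, whose promoters are shown above and which were chosen after their values were seen, had low levels. DMSO over inhibitors for *H2bc8* was 3.01 ± 0.37 on the log2 scale in saline and 3.60 ± 0.35 in LPS mice, and for *H2bc12* 4.06 ± 0.59 and 2.67 ± 0.41. *H2bc6* followed another course, at 18.2 and 16.9, 15.5 and 13.3, 9.68 and 7.31, and 4.66 and 4.07 in the group order used for *H2bc4*. Its LPS over saline values were -1.04 ± 0.18 and -1.72 ± 0.19, and its DMSO over inhibitors values 0.28 ± 0.18 in saline and 0.96 ± 0.19 in LPS mice. The groups did not overlap on the TMM scale, but the steps between them were small beside those of *H2bc4*.

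The H2A genes *H2ac18* and *H2ac19* had nearly parallel values. *H2ac18* was at 25.1 and 46.7 in saline DMSO, 15.6 and 24.7 in saline inhibitors, 59.7 and 103 in LPS DMSO, and 9.66 and 11.4 in LPS inhibitors. On the TMM scale the LPS DMSO libraries were the highest and the LPS inhibitor libraries the lowest. In CPM without TMM the saline and LPS DMSO libraries overlapped, and the rise with LPS in DMSO was smaller. LPS over saline was 1.18 ± 0.32 in DMSO (1.25 and 1.14 by batch) and -0.93 ± 0.33 in inhibitors (-0.69 and -1.11 by batch). For *H2ac19*, which cannot be told apart from its copy by most of its sequence, the values were 1.22 ± 0.32 and -0.94 ± 0.32.

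*H2aw*, the H2A gene on chromosome 11, was at 30.4 and 26.6 in saline DMSO, 30.1 and 29.5 in saline inhibitors, 12.7 and 19.98 in LPS DMSO, and 2.37 and 2.92 in LPS inhibitors. DMSO over inhibitors was -0.06 ± 0.20 on the log2 scale in saline mice, where the libraries overlapped, and 2.62 ± 0.23 in LPS mice, where they did not. *H2ac6* and *H2ac23*, H2A genes of the chromosome 13 cluster, spanned 0.229 to 8.72 and 0.479 to 7.21 over the 8 libraries. Both were lowest in the LPS inhibitor pair, and the saline DMSO pair was at 3.33 and 6.32 for *H2ac6* and 3.04 and 7.21 for *H2ac23*.

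The H3 gene *H3c14* was at 5.42 and 5.84 in saline DMSO, 5.23 and 5.41 in saline inhibitors, 2.74 and 1.94 in LPS DMSO, and 0.146 and 0.167 in LPS inhibitors. The saline libraries all lay between 5.23 and 5.84 (DMSO over inhibitors 0.08 ± 0.23 on the log2 scale), while LPS over saline was -1.26 ± 0.24 in DMSO and -5.06 ± 0.32 in inhibitors. The LPS inhibitor values rest on few of the 1256 UMIs of *H3c14* in microglia, so the size of that fall is uncertain. The H4 gene *H4c9* was at 11.96 and 13.2, 2.83 and 4.53, 7.11 and 15.6, and 1.04 and 1.34 in the same order of groups. It resembled *H1f2* in that DMSO exceeded inhibitors in saline (1.79 ± 0.35) as well as in LPS mice (3.24 ± 0.38).

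**Figure D1:**
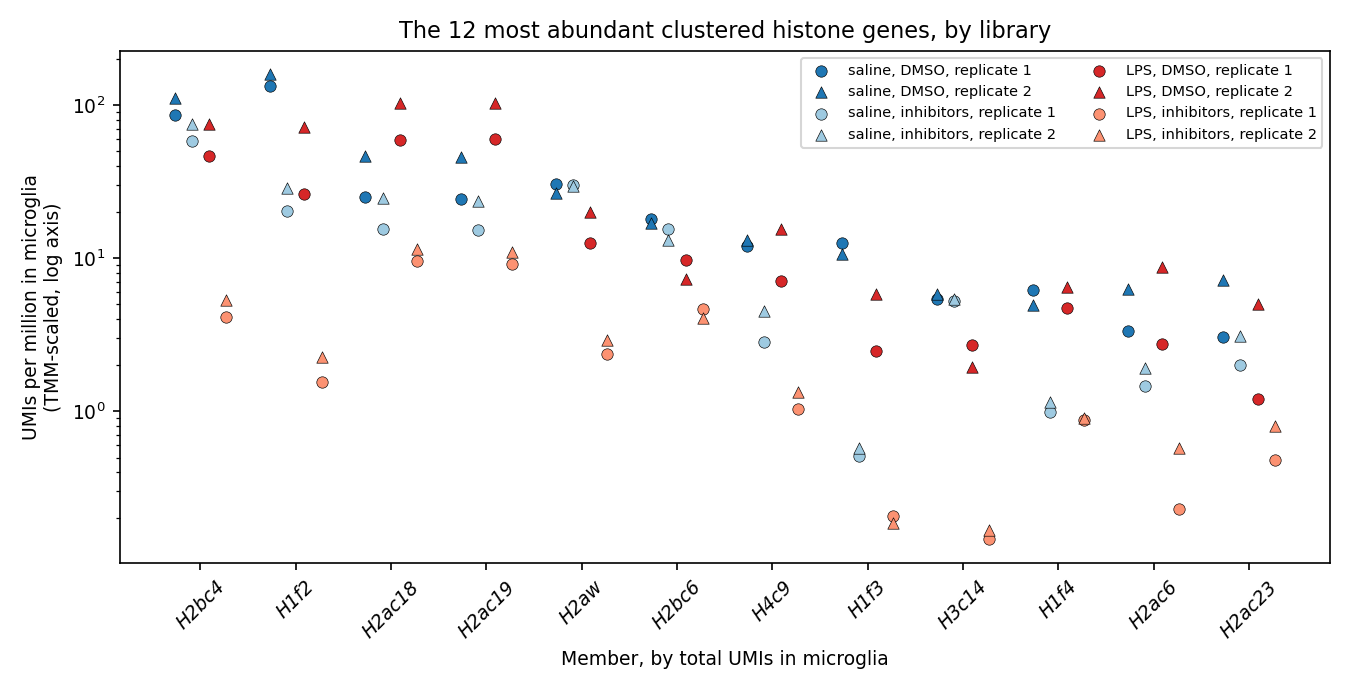
TMM-scaled CPM (log axis) of the 12 members with the most microglial UMIs, with 1 point per library, color for the group and shape for the replicate. The 2 LPS inhibitor libraries lie lowest for each of the 12 genes, closest to another group for *H1f4*, whose inhibitor points lie between 0.875 and 1.15.

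Shares within the member sum do not depend on the scaling. H1 genes held 36.8% and 33.4% of member UMIs in saline DMSO, 11.5% and 12.7% in saline inhibitors, 11.7% and 16.2% in LPS DMSO, and 5.70% and 6.12% in LPS inhibitors. The share of H2A ran the other way, with 24.5% and 30.9%, 38.8% and 40.2%, 50.3% and 51.1%, and 50.3% and 54.5%. *H2ac18* and *H2ac19* together made up 11.9% and 17.4% in saline DMSO and 41.0% and 39.0% in LPS DMSO. *H2bc4* held 30.6% and 31.4% in saline inhibitors and 8.45% and 9.01% in LPS inhibitors, and the H4 share reached 12.3% and 11.6% in LPS inhibitors.

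**Figure D2:**
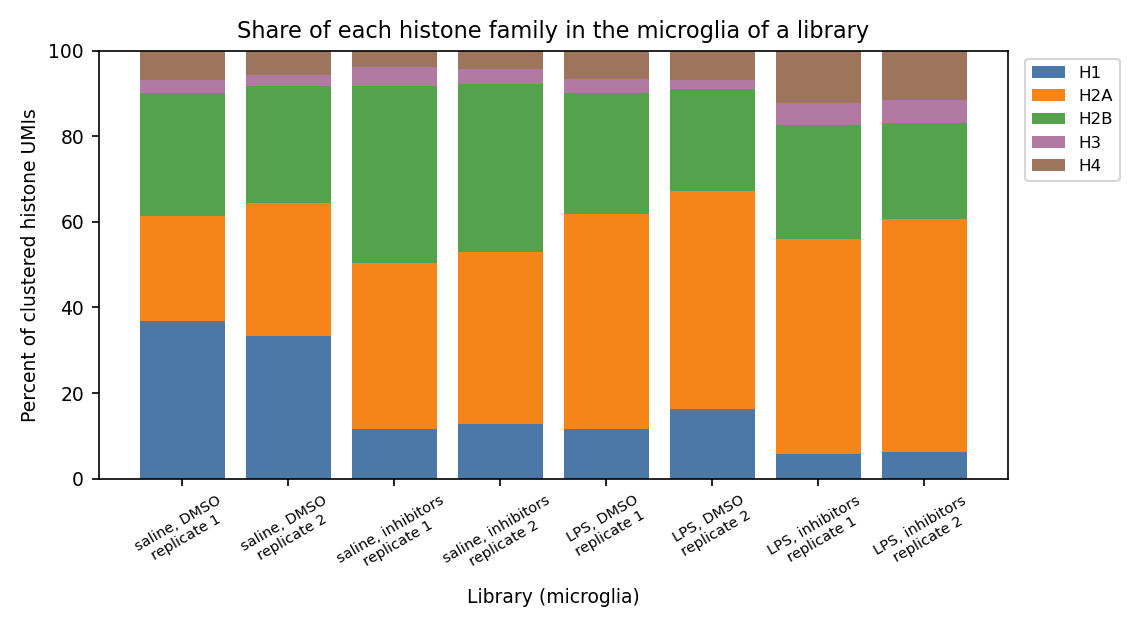
Percent of the clustered histone UMIs of a library's microglia that belonged to each family, with 1 stacked bar per library. The H1 part is largest in saline DMSO (36.8% and 33.4%) and smallest in LPS inhibitors (5.70% and 6.12%).

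The ex vivo contrast compares dissociation without and with the block of transcription and translation, and mRNA gained in DMSO cannot be told apart from mRNA lost in inhibitors. In saline mice, DMSO over inhibitors was above 0 for 60 of the 62 members tested, with a median log2 fold change of 1.56 beside -0.01 over all genes. At an adjusted p under 0.05 in edgeR's quasi-likelihood fit, 11 members were higher in DMSO and 0 lower, where 0.267% of all 22505 genes were higher and 0.00889% lower. In LPS mice the median was 2.56, all 62 were above 0, 25 members were higher and 0 lower, and the shares over all genes were 0.293% and 0.0133%. The members were singled out on this contrast, so nothing is read from these counts.

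With the batch as a replicate block, the counts of higher members were 17 in saline mice (0.44% of all genes) and 38 in LPS mice (0.431%). By DESeq2, 18 (0.423% of all genes) and 37 (0.406%) members were higher and 0 lower. Without 1 library, the count in saline fell to 6 (without saline inhibitors replicate 1, where 0.187% of all genes were higher). In LPS mice it was 6 without LPS inhibitors replicate 2 (0.0714% of all genes), 9 without LPS inhibitors replicate 1 (0.0841%), 12 without LPS DMSO replicate 2 (0.226%) and 40 without saline inhibitors replicate 2 (0.395%). Higher members at an unadjusted p under 0.05 numbered 44 and 59 of the 62, beside 2.04% and 2.15% of all genes, and 0 were lower. Of the 62 members tested, 53 had both saline DMSO libraries above both saline inhibitor libraries, as did 11% of all genes. For LPS mice these were 60 members and 14% of all genes.

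By family, the median log2 fold changes in saline mice were 3.38 for H1, 2.57 for H3, 2.21 for H2B, 1.56 for H4 and 1.00 for H2A, and those passing were 4 of 5 H1, 3 of 17 H2B, 2 of 11 H3 and 2 of 12 H4 members. In LPS mice they were 3.05 for H1 and H2B, 2.41 for H2A, 1.93 for H4 and 1.54 for H3, with 13 of 17 H2B members passing. Barcodes with 1 to 99 UMIs held 900 and 1182 CPM of members in saline DMSO, 455 and 755.04 in saline inhibitors, 361 and 717 in LPS DMSO, and 133 and 178 in LPS inhibitors. The part of RNA from outside the cells in the microglial values was not tested.

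**Figure D3:**
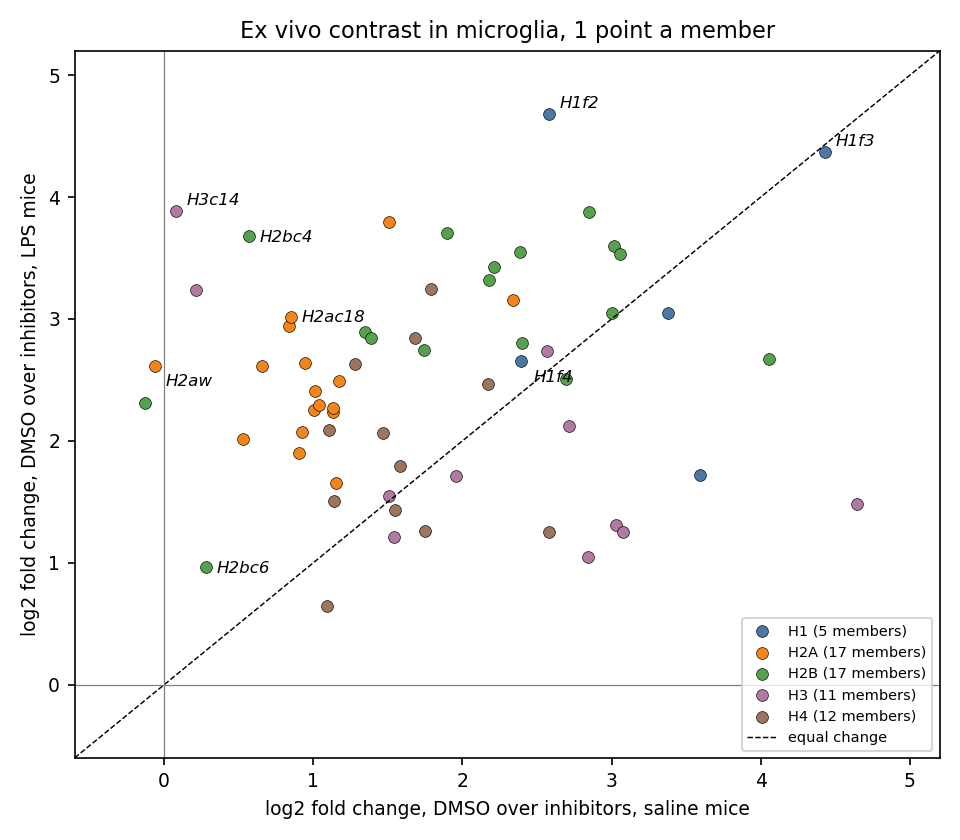
Log2 fold change of DMSO over inhibitors in microglia of saline mice (horizontal) and of LPS mice (vertical), with 1 point for each of the 62 members tested and color for the family. H1 genes lie far right, H2A genes lie left of the dashed line of equal change, and *H3c14* (0.08), *H2bc4* (0.57) and *H2aw* (-0.06) lie low in saline mice and between 2.62 and 3.88 in LPS mice.

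The in vivo contrast asks how LPS changed the level. In DMSO libraries, 18 members were higher and 8 lower after LPS at an adjusted p under 0.05 (edgeR), where 21.7% and 20.6% of all genes were. In inhibitor libraries 7 members were higher and 19 lower, where 23.7% and 20.3% of all genes were. Nothing is read from these counts, since the LPS response was part of the choice, and they depend on the scaling. With UMI totals in place of TMM, the median of all genes moved by -0.78 on the log2 scale in DMSO and by -0.81 in inhibitors, and the members numbered 0 higher and 19 lower in DMSO (9.31% and 52.7% of all genes) and 3 higher and 29 lower in inhibitors (10.3% and 53% of all genes). Of the genes called in either direction, the part called higher went from 51.3% to 15.02% in DMSO and from 53.9% to 16.3% in inhibitors.

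Leaving out LPS DMSO replicate 2 left 2 members higher in DMSO (17.8% of all genes), and leaving out LPS DMSO replicate 1 or saline DMSO replicate 2 left 4 (13.8%) or 5 (14.7%) lower. In inhibitors, 4 were higher without saline inhibitors replicate 1 (16.2% of all genes) and 8 lower without LPS inhibitors replicate 1 (13.1%). By family, 12 of 17 H2B members were higher in DMSO (median 1.35), and 3 of 5 H1 members were lower (median -1.49). In inhibitors, 10 of 17 H2A members were lower (median -1.58). The all-gene medians were -0.20 and -0.19.

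The difference between the LPS effects in DMSO and in inhibitors was less touched by the scaling, which moved its all-gene median by 0.02. It was above 0 for 46 of 62 members (median 0.99 beside -0.04 over all genes) and for 17 of 17 H2A members. At an adjusted p under 0.05, 3 members were above 0 and 0 below, where 0.0178% (4 genes) and 0% of all genes were. The members were singled out on this difference too, so these counts describe the choice and nothing is read from them. The 3 members were *H3c14* (3.80 ± 0.40, with few UMIs in LPS inhibitors), *H2bc4* (3.11 ± 0.35) and *H2aw* (2.68 ± 0.30). The replicate block gave 5 members above 0 (0.0267% of all genes) and DESeq2 gave 7 (0.0342%), with 0 members below 0 in both. At an unadjusted p under 0.05, 13 members were above 0 and 5 below, beside 0.68% and 1.32% of all genes. The count was 0 without either LPS inhibitor library, where 0 of all genes passed, and 6 without saline DMSO replicate 2 (0.0336%).

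Dividing cells are where replication-dependent histone genes are best known to be read. A microglial cell was counted as cycling when at least 4 of 33 mitotic and proliferation genes, such as *Mki67* and *Top2a*, had a UMI, and no histone gene was in this list. There were 361 such cells. They made up 0.537% (95% Wilson interval 0.420 to 0.688) and 1.17% (0.987 to 1.39) of microglia in saline DMSO, and 0.351% (0.267 to 0.463) and 0.532% (0.413 to 0.684) in saline inhibitors. In LPS DMSO they made up 0.160% (0.104 to 0.248) and 0.101% (0.0530 to 0.191), and in LPS inhibitors 0.106% (0.0609 to 0.186) and 0.154% (0.0997 to 0.238). Every LPS library lay below every saline library.

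The mean share was 0.648% ± 0.360 (SD, n = 4) in saline and 0.130% ± 0.0312 (SD, n = 4) in LPS mice, a difference of -0.518 percentage points, or -0.343 without saline DMSO replicate 2, the library at 1.17%. An exact two-sided permutation test over the libraries gave p = 0.0286, the smallest it allows with 4 against 4. With libraries exchanged only within batches, the exact permutation p was 0.0556, the smallest that this blocked test allows, and without any 1 LPS library the exact permutation p was 0.0571. Thinned to 800 UMIs a cell, the difference was -0.355 points. In thinned cells LPS DMSO replicate 2 held 0 of 8943, which allows up to 0.0335%.

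Against the other microglia of the same library, over 7 libraries with at least 10 cycling cells (LPS DMSO replicate 2 held 9), the cycling cells had more UMIs of most H2A genes on chromosome 13. The fit could test 30 members, of which 18 rose and 3 fell in cycling cells at an adjusted p under 0.05 (edgeR, library as a block), where 9.99% and 16.4% of all 14919 genes did. The member median was 1.90 on the log2 scale beside -0.18 over all genes. The other members failed the filter on low counts, among them *H1f3* with 1208 UMIs in the other microglia. In the small sums of cycling cells few UMIs give a high CPM. *H2bc12* passed with 23 UMIs (5.19 CPM on average) there and 137 (0.382 CPM) in the other microglia. Members high in cycling cells could thus pass more easily, so nothing is read from these counts, over all members or by family, or from the median. The fit with no filter on low counts had 43 members higher, beside 4.34% of 30968 genes. The median cycling cell held 5218 to 13770 UMIs, against 2236 to 5588 in the others. Levels from here on are in plain CPM, without the TMM factor, unless stated.

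*H2ac11* had the largest change, at 36.3 ± 21.8 (SD, n = 7) in cycling cells and 1.02 ± 0.635 in the others. Its log2 fold change was 5.01 ± 0.34 (SE, edgeR adjusted p = 4.12e-10), and it was higher in 7 of 7 libraries. *H2ac4* (4.83 ± 0.40), *H2ac13* (4.76 ± 0.42), *H2ac23* (4.73 ± 0.29) and *H2ac24* (4.67 ± 0.29) followed, each higher in 6 or 7 of 7 libraries. *H2ac23* was at 55.8 ± 44.8 in cycling cells, where it ranged from 0 to 109, and at 1.87 ± 1.27 in the others. *H2ac6* (3.55 ± 0.45) and the H4 gene *H4c9* (1.94 ± 0.28, 6 of 7 libraries) also rose, although *H2ac6* was higher in only 4 of 7 libraries.

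Several abundant members went the other way or did not pass. *H2aw* fell by 1.33 ± 0.28 on the log2 scale (edgeR adjusted p = 0.00121, lower in 6 of 7 libraries), *H2ac18* by 1.26 ± 0.28 (adjusted p = 0.00189, 6 of 7) and *H2ac19* by 1.03 ± 0.34 (adjusted p = 0.0275, 7 of 7). *H2ac18* was at 13.03 ± 7.21 CPM in cycling cells and 29.97 ± 19.2 in the others. *H2bc4* (-0.21 ± 0.45), *H1f2* (-0.79 ± 0.49), *H2bc6* (-0.66 ± 0.34), *H3c14* (-0.09 ± 0.49) and *H1f4* (1.18 ± 0.45) did not pass, with adjusted p-values from 0.0593 to 0.924. By family, 10 of 13 H2A members rose and 3 fell, 5 of 8 H2B, 1 of 3 H3 and 2 of 4 H4 members rose.

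The members also differed in how much of their microglial total lay in the 361 cycling cells. For 25 members it was over 10%, a count without the matching share of all genes, from which nothing is read. The part in cycling cells was 73.8% for *H1f5* (of 61 UMIs in all microglia), 32.9% for *H2ac15* (of 173) and 30.8% for *H2ac11* (of 545). *H1f5* is named because its share was the highest seen, and *H2ac15* for a high share, chosen after the values were seen. *H3c3*, with 32 UMIs in all microglia, held 11 in the cycling cells of the 7 libraries compared, a share above that of *H2ac15*. For *H1f2* it was 0.962%, for *H2bc4* 1.21% and for *H2ac18* 0.468%, beside the 0.906% of all UMIs that these cells held. With the cycling cells removed, 8 members were higher in DMSO in saline mice (0.208% of all genes), 26 in LPS mice (0.302%), and 3 had a difference of LPS effects above 0 (0.0177%).

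**Figure D4:**
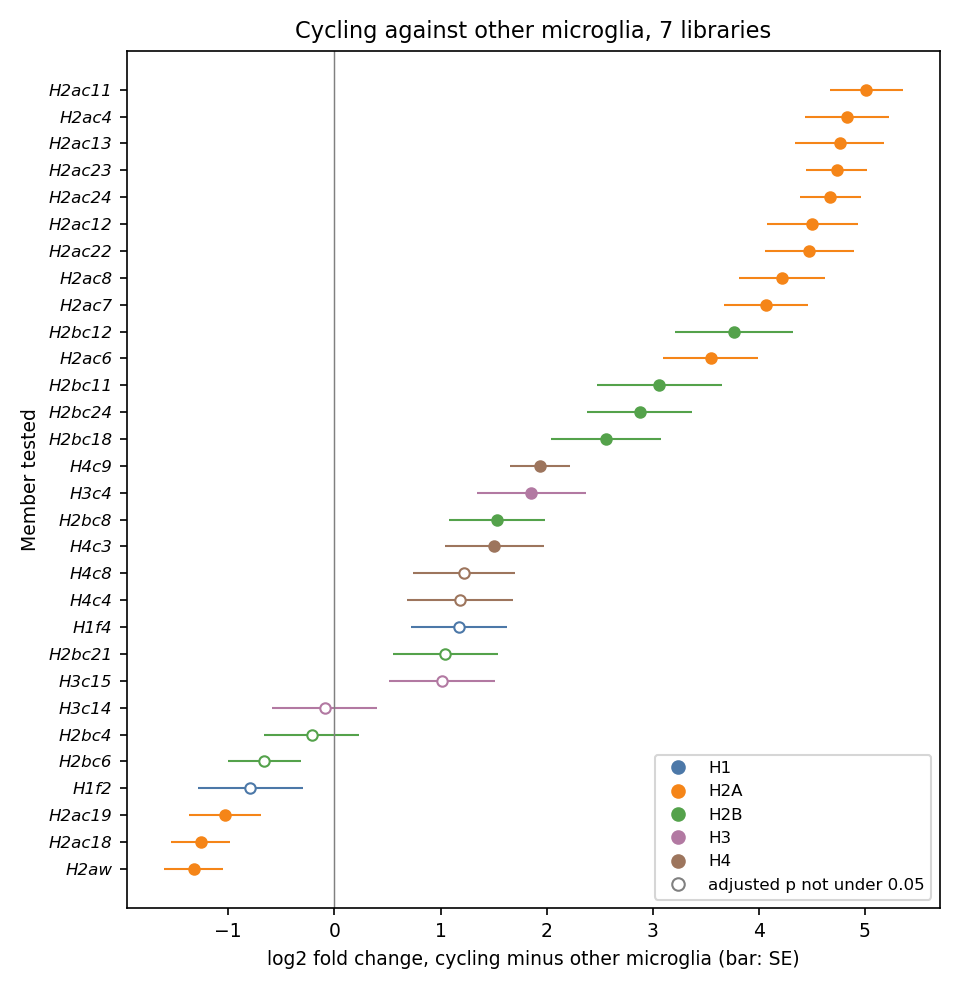
Log2 fold change of cycling against other microglia for the 30 members tested over 7 libraries, with bars for the SE, color for the family and open points for members that did not pass. H2A genes of chromosome 13 lie at the top, up to 5.01, and *H2ac19*, *H2ac18* and *H2aw* lie at the bottom, down to -1.33.

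UMIs of these genes were also counted in other cells of the brain and its vessels. Beside the barcodes with 1 to 99 UMIs, at 900 and 1182 CPM in saline DMSO, the class levels there were mostly lower, and the part of RNA from outside the cells in them was not tested. In saline DMSO, the members summed to 600 and 649 CPM in microglia, 667 and 826 in macrophages, 748 and 657 in monocytes, 654 and 639 in neutrophils and 933 and 769 in B-cells. In LPS DMSO these classes held 228 and 406, 119 and 181, 255 and 363, 576 and 575, and 668 and 363. Macrophages thus lay below microglia in both LPS DMSO libraries and above them in the other 6 libraries. In LPS inhibitors the classes held 40.1 and 40.4, 70.0 and 69.7, 156 and 256, 521 and 392, and 130 and 185. A library held as few as 23 B-cells, 24 monocytes and 43 neutrophils, against at least 300 macrophages and 8943 microglia. The B-cell and monocyte levels of such libraries rest on few cells. The microglial libraries spread over a wider range than the neutrophil libraries, and the members were chosen on the microglial values.

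On the log2 scale, DMSO over inhibitors of the group means in saline mice was 1.62 in monocytes, 1.27 in T-cells, 1.16 in microglia, 0.84 in B-cells, 0.65 in macrophages and 0.36 in neutrophils. It was 0.68 in NK cells, 0.08 in choroid plexus, -0.10 in ependymal cells, -0.13 in mural cells and -0.24 in endothelial cells, and both saline DMSO libraries lay above both saline inhibitor libraries in 7 of the 11 classes. In LPS mice it was 2.98 in microglia, the largest of 11 classes with at least 10 cells in every library, and 1.71 in B-cells, 1.11 in macrophages, 0.80 in T-cells, 0.58 in monocytes and 0.33 in neutrophils. In choroid plexus it was 0.17, with levels of 827 to 1292 over the 8 libraries. In ependymal cells it was -0.07, with levels of 1489 to 2701, and the LPS libraries overlapped. Both LPS DMSO libraries lay above both LPS inhibitor libraries in 8 of the 11 classes. Some classes were small, with as few as 23 B-cells, 24 monocytes, 18 mural cells and 15 ependymal cells in a library. Their ratios are less certain than those of microglia. The members were chosen on this contrast in microglia, so nothing is read from the place of microglia among the classes. NK cells went the other way with LPS, from 371 and 509 in saline DMSO to 970 and 1200 in LPS DMSO, with H4 genes (chosen after their values were seen) at 49.7 to 62.2 in the 4 saline and 188 to 270 in the 4 LPS libraries, each from 27 to 95 cells.

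**Figure D5:**
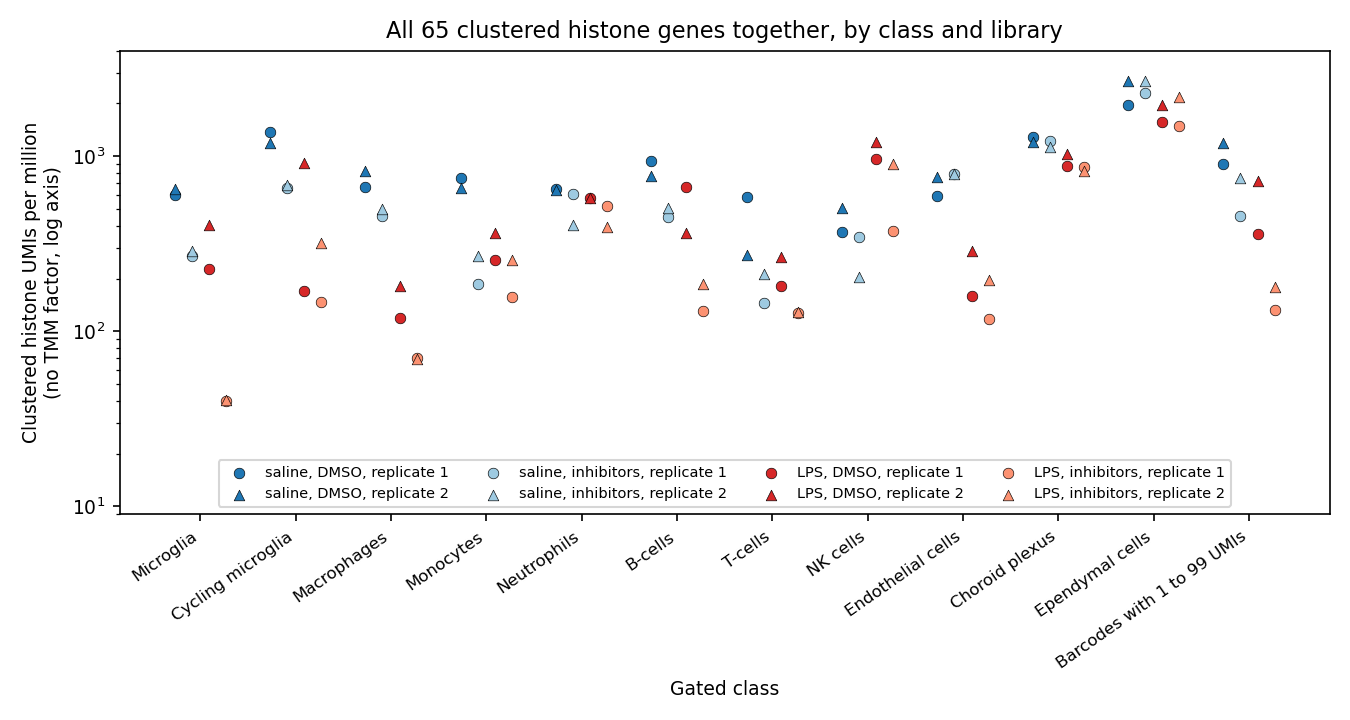
Sum of the 65 members in plain CPM (log axis) for gated classes, cycling microglia and barcodes with 1 to 99 UMIs, with 1 point per library. Microglia span 40.1 to 649, while neutrophils stay between 392 and 654 and ependymal cells between 1489 and 2701.

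Each of 5 classes was compared with microglia of the same library in an edgeR fit with the library as a block, over 8 libraries. The microglial sums on which the members were chosen are the reference in every fit. Nothing is therefore read from the counts of members called, in the main fit, in other settings or with a library left out. Fold changes and adjusted p-values of members in these fits are given as a description. The fits pool libraries of both directions, since the summed member level lay above that of microglia in 7 of 8 libraries for B-cells and neutrophils, 6 for macrophages, 5 for monocytes and 2 for T-cells. With UMI totals in place of TMM the all-gene median moved from -0.03 to 0.35 in monocytes, from -0.26 to -0.54 in T-cells, from -0.12 to -0.38 in B-cells, from -0.32 to -0.10 in neutrophils and from -0.08 to 0.05 in macrophages. B-cells, which make antibodies and divide on activation, had 20 of 33 tested members higher and 0 lower, where 15.2% and 21.2% of all 14644 genes were. *H2ac11* was at 18.4 CPM on average in B-cells (0 to 33.2) and 1.74 in microglia, with a log2 fold change of 3.77 ± 0.35 (edgeR adjusted p = 1.54e-09, 7 of 8 libraries). *H2ac4*, *H2ac15*, *H2ac24* and *H2ac23* were higher by 3.42 to 3.69, each in 5 to 7 of 8 libraries, and *H4c9* by 2.02 ± 0.28 in 8 of 8 libraries. The count was 13 without saline DMSO replicate 1 (11.5% of all genes), and UMI totals gave 17 higher and 1 lower (12.9% and 29.4% of all genes). A lower count of 1 arose when any of 5 libraries was left out (all but saline DMSO replicate 1, LPS DMSO replicate 1 and saline inhibitors replicate 2), DESeq2 gave 0, and 23 members in either direction had an unadjusted p under 0.05.

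Monocytes, blood cells that can become macrophages, had 14 of 38 members higher and 2 lower, where 24.2% and 28.8% of 15557 genes were. *H2ac11* (3.19 ± 0.49, higher in only 4 of 8 libraries), *H2ac24* (2.82 ± 0.40, 7 of 8) and *H2ac23* (2.73 ± 0.38, 8 of 8) led, followed by *H2ac12* and *H2ac22*, each higher in 6 of 8 libraries. The lower members were *H2bc4* (-1.17 ± 0.34, edgeR adjusted p = 0.00918) and *H3c14* (-1.37 ± 0.44, adjusted p = 0.0162). *H2bc4* was at 23.6 CPM on average in monocytes and 67.1 in microglia. With UMI totals 20 members were higher and 0 lower (38.2% and 15.5% of all genes), DESeq2 gave 1 lower (15.7%), and without LPS inhibitors replicate 2 the lower count was 5 (29%).

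Neutrophils, short-lived phagocytes that no longer divide once mature and were not split by stage here, had 14 of 29 members higher and 0 lower, where 19% and 36.7% of 15316 genes were. These included the abundant *H2ac18*, at 111 CPM on average (27.8 to 177) against 35.8 (7.82 to 79.2) in microglia, with a log2 fold change of 1.69 ± 0.41 (edgeR adjusted p = 0.00181, 7 of 8 libraries). *H2ac23* (2.14 ± 0.39), *H2ac24* (2.03 ± 0.42), *H2bc24* (1.84 ± 0.72), *H2ac7* (1.79 ± 0.46) and *H2ac11* (1.74 ± 0.45) changed most, each higher in 6 or 7 of 8 libraries. *H1f2* was higher by 1.42 ± 0.51 and *H2bc6* by 1.39 ± 0.36. A lower count of 1 arose without either LPS inhibitor library, DESeq2 gave 0 lower, and all 14 unadjusted p-values under 0.05 belonged to the called members.

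The T-cell member sum was at 589 and 271 CPM in saline DMSO, 145 and 212 in saline inhibitors, 181 and 267 in LPS DMSO, and 127 and 129 in LPS inhibitors, above microglia in the LPS inhibitor pair alone. T-cells had 10 of 26 members higher and 2 lower, where 14.8% and 25.3% of 14541 genes were. *H4c2* had the largest change, 2.66 ± 0.55 (edgeR adjusted p = 0.000446, higher in 5 of 8 libraries, 11 UMIs in all). *H2ac4* (2.12 ± 0.66, 4 of 8), *H4c4* (1.97 ± 0.45, 8 of 8), *H2ac20* (1.92 ± 0.70, 5 of 8, 7 UMIs in all) and *H2ac8* (1.82 ± 0.53, 5 of 8) followed. *H2bc4* was lower (-1.48 ± 0.32, edgeR adjusted p = 0.000709), as was *H2aw* (-0.91 ± 0.34, adjusted p = 0.0346). *H3c14* (0 UMIs in T-cells) and *H1f3* (5 UMIs) were lower in 8 of 8 libraries but failed the filter on low counts and could not be tested. Members that T-cells nearly lacked could thus drop out of the count of lower members. The counts were 3 higher and 1 lower without saline DMSO replicate 1 (14.2% and 20.3% of all genes), and the lower count was 1 without any of 5 other libraries (all but saline DMSO replicate 2 and saline inhibitors replicate 2). With UMI totals they were 4 higher and 3 lower (11.4% and 34.6% of all genes). DESeq2 gave 16 higher and 0 lower (10.7% and 8.66%), so that both lower calls ended.

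Macrophages, a class close to microglia in kind, lay below microglia in summed level in LPS DMSO and above them elsewhere. They had the fewest calls of the 5 classes, with 2 of 30 members higher and 2 lower, where 12.5% and 20.4% of 16249 genes were. *H2aw* was at 41.6 CPM on average against 22.9 in microglia (0.72 ± 0.19, edgeR adjusted p = 0.0104, 6 of 8 libraries), and *H2bc21* was higher by 1.07 ± 0.32 (adjusted p = 0.017). *H3c14* was lower by 0.91 ± 0.32 (adjusted p = 0.0412, 8 of 8 libraries) and *H2ac6* by 1.04 ± 0.34 (adjusted p = 0.0301, 7 of 8). Without 1 library, the higher count was 1 (saline DMSO replicate 1 or saline inhibitors replicate 1), and the lower count was 0 without saline DMSO replicate 1 or LPS DMSO replicate 2 and 1 without LPS DMSO replicate 1, saline inhibitors replicate 1 or LPS inhibitors replicate 1. The counts without 1 library stand without shares of all genes, so nothing is read from them. With UMI totals 2 members were higher and 1 lower (16.7% and 15.3% of all genes). With at least 1500 UMIs per cell, 1 was higher and 0 lower (12.9% and 20.8%), and by DESeq2 2 were higher and 1 lower (10.8% and 10.7%). The calls of *H3c14* and *H2ac6* ended in both of these settings.

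Genes around histone supply were read from lists of non-members, for LPS averaged over both ex vivo agents. In this contrast 14 members of 62 were higher and 17 lower, and 27.1% of all genes were higher and 30.3% lower, with an all-gene median of -0.21. UMI totals moved that median by -0.79, with 5 members higher and 32 lower (11.9% and 66.6% of all genes), so the directions below are relative to the TMM scale. Microglial and choroid plexus marker sums, given above, moved with LPS as well.

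Of 11 replication-independent histone genes, whose mRNAs carry poly(A) tails and serve outside S phase, 4 rose and 3 fell. *H3f3b*, which codes for H3.3, was at 790 and 774 in saline DMSO, 459 and 573 in saline inhibitors, 2116 and 1664 in LPS DMSO, and 1257 and 1556 in LPS inhibitors (TMM-scaled). Its log2 change was 1.36 ± 0.18 (edgeR adjusted p = 5.77e-05). On the TMM scale the LPS libraries lay above all saline libraries, whereas in CPM without TMM the LPS inhibitor and saline DMSO libraries overlapped. *H2aj* rose by 1.02 ± 0.24, *H2az2*, an H2A.Z variant, fell by 1.86 ± 0.16, and *Cenpa*, the centromeric H3, fell by 1.85 ± 0.35. With UMI totals 1 rose and 5 fell.

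The list of histone mRNA synthesis, processing and decay had 10 of 19 genes higher and 1 lower, which became 2 and 11 with UMI totals. *Srrt*, a cap-binding complex partner, rose by 1.61 ± 0.10 and *Ncbp1*, a cap-binding subunit, by 1.03 ± 0.10. *Lsm1*, of the decay ring that acts on histone mRNA, rose by 1.12 ± 0.12 and *Clp1*, a 3' end factor, by 0.83 ± 0.13. Among histone chaperones and deposition factors, 14 of 19 rose and 2 fell (median 0.87), or 6 and 6 with UMI totals. *Hat1*, which acetylates new H4, rose by 1.98 ± 0.13, *Chaf1b* of the replication-coupled CAF-1 complex by 1.60 ± 0.31, and the chaperones *Nap1l1* and *Set* by 1.51 ± 0.13 and 1.40 ± 0.13.

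Of 29 S-phase genes, 18 rose and 3 fell after LPS, with *Gins2* (1.67 ± 0.18), *Ung* (1.53 ± 0.35), *Fen1* (1.47 ± 0.17) and *Tipin* (1.34 ± 0.20) changed most. With UMI totals 5 rose and 8 fell. The genes of the cycling gate are called G2/M genes here, although some, such as *Rrm2*, serve in S phase. Of these 33 genes, 27 were lower and 2 higher. *Mki67* (-2.39 ± 0.29), *Pbk* (-2.61 ± 0.32) and *Rrm2* (-2.38 ± 0.36) fell while *Kif23* rose by 3.04 ± 0.23. Without cycling cells 5 G2/M genes were lower and 6 higher, and 0 S-phase genes were lower. The G2/M genes define the cells removed, so their loss of lower calls follows in part from the rule, and nothing is read from it. In the difference of the LPS effects, 0 genes of these lists passed in edgeR and 0 in DESeq2, with 7 S-phase and 3 G2/M genes and 0 of the other lists at an unadjusted p under 0.05.

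In cycling against other microglia, 28 of 28 S-phase genes tested rose (median 3.43), as did 7 of 10 replication-independent histone genes, 11 of 19 chaperones (1 fell) and 6 of 18 processing genes (2 fell), where 9.99% of all genes rose and 16.4% fell, with a median of -0.18. *Cenpa* rose by 6.56 ± 0.29 and *H2az2* by 2.62 ± 0.19.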

How the data were processed

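CD45+ brain cells of 8 mice were profiled by PIPseq, 1 library per mouse. The authors made the deposited counts, raw UMIs per gene and barcode, with PIPseeker (STAR, a GRCm39 GENCODE reference), and the submitters' notes name Seurat 4. Here cells within the limits given in the report were gated by marker lists (at least 3 markers and a margin of 0.1 in the share of a list detected, set after seeing the data). Doublets were removed only as an alternative (Scrublet). UMIs were summed per library and class and tested with edgeR 4.0.16 (TMM, quasi-likelihood, filterByExpr, Benjamini-Hochberg over all genes tested) in R 4.3.3. DESeq2 1.42.0 was the alternative tool, limma 3.58.1 was installed but ran no alternative, and the scripts were tested on simulated data. The members and lists were chosen with earlier results of these data known. Named were the 12 members with most microglial UMIs, the up to 5 called members with the largest change in each cycling or class comparison, and up to 4 called genes per list. Replicate numbers are the labelled batch: deviations of same-numbered libraries correlated at 0.171 to 0.635 over 22505 genes in all 6 group pairs. p-values of the fit over 4 groups measure the spread between 2 mice per group. Those of the cycling and class fits measure the spread of differences within libraries, over 7 or 8 mice from all 4 groups. The cycling share was tested by permutation of 4 against 4 libraries. Intervals and limits cover counting error only.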

Additional observations from a re-analysis of the deposited data

Results flagged for a closer look

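The LPS effect differed between DMSO and inhibitor libraries for *H2aw* (by 2.68 on the log2 scale), *H2bc4* (3.11) and *H3c14* (3.80), each at an adjusted p under 0.05 in edgeR for that difference. The value of *H3c14* rests on few UMIs in LPS inhibitors. *H2ac18* was above saline by 1.18 after LPS in DMSO in both batches and below saline in inhibitors in both, and *H2ac19* likewise by 1.22. The opposite signs themselves were not tested as such. On UMI totals these DMSO values were 0.43 and 0.47. All 5 genes belong to the group chosen for this contrast, so the values describe it and support nothing further. Groups of 2 libraries could not be searched for a library that stands apart. Over the cycling shares of the 4 saline and of the 4 LPS libraries, and over the ratios of summed member CPM of cycling cells (7 libraries) and of the 5 compared classes (8 libraries each, all groups pooled) to microglia, no library passed the 95% limit of Dixon's test for a single outlying value. Among the saline shares, replicate 2 of saline DMSO stood at 1.17% and the others at 0.351% to 0.537%, a gap that did not pass with 4 values.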

How the results depend on the processing

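Over the planned settings other than leaving out a library, 237 of 280 comparisons of a main result kept their direction and their side of the threshold or stayed within 1.5 times the count, and 959 of 1042 for single genes did. For libraries left out in turn these were 300 of 344 and 1172 of 1359. For the results named here as changed, the cause was not tested, except where fewer genes or cells were tested by construction. Depth limits the low members: 10 had under 100 UMIs in all microglia. In the cycling comparison 35 of 65 members failed the filter, among them *H1f3*, with 1460 UMIs in all microglia. UMI totals in place of TMM were added after seeing the data.

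With DESeq2, 44 members rose in cycling cells (8.37% of all genes), 1 was lower in macrophages, 1 lower in monocytes, 16 higher and 0 lower in T-cells, 7 had a difference of LPS effects above 0, 18 were higher in DMSO in saline mice, and 1 chaperone was lower after LPS. With no filter on low counts, 43 members rose in cycling cells (4.34% of all genes), 5 were lower in macrophages (13.9%), 33 higher and 1 lower in B-cells (6.23% and 14.2%), and 8 (0.0386%), 24 (0.495%) and 43 (0.341%) passed for the difference of LPS effects and for DMSO over inhibitors in saline and in LPS mice. With at least 1500 UMIs per cell, 1 member was higher and 0 lower in macrophages and 1 was lower in T-cells, as was 1 without Scrublet doublets. These T-cell counts stand without shares of all genes, so nothing is read from them. With the replicate block, the labelled pairing, 5, 17 and 38 members passed for the difference and for DMSO over inhibitors in saline and in LPS mice, and the difference in cycling share, -0.518 points, missed 0.05 at the smallest p its exact permutation test allows. The block moved no other main count by over 1.5 times.

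With UMI totals, 0 members were higher and 19 lower after LPS in DMSO, 3 higher and 29 lower in inhibitors, 1 lower in macrophages, 0 lower in monocytes, 1 lower in B-cells and 4 higher in T-cells. The lists for LPS averaged became 1 higher and 5 lower for replication-independent histones, 2 and 11 for mRNA synthesis, processing and decay, 6 and 6 for chaperones, and 5 and 8 for S-phase genes, and 1 G2/M gene was higher. Without cycling cells 0 S-phase genes were lower, and 6 G2/M genes, which define the cells removed, were higher and 5 lower.

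Single values that changed sign had adjusted p-values from 0.435 to 0.932. In DESeq2 these were *H3c14* (0.17) and *H2bc4* (0.0024) in cycling cells, *H2bc6* in macrophages (0.015), *H1f3* in neutrophils (0.031) and *H2ac6* in T-cells (0.041). With no filter they were *H2ac18* in macrophages (-0.016) and B-cells (-0.034), *H1f4* in neutrophils (-0.053) and *H1f2* in B-cells (-0.11), the last also with 1500 UMIs (-0.012) and UMI totals (-0.14). UMI totals turned *H2bc6* (0.026) and *H2bc4* (0.031) in macrophages and *H1f4* (0.29) and *H1f2* (0.076) in monocytes, and *H2ac18* in T-cells was at 0.043 without Scrublet doublets.

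Leaving out 1 library at a time gave ranges of -0.617 to -0.343 points for the cycling share (-0.343 without saline DMSO replicate 2, p = 0.0571 in exact permutation tests without any LPS library, at -0.528 to -0.508), 12 to 26 members higher and 2 to 3 lower in cycling cells, 1 to 2 and 0 to 3 in macrophages, 11 to 16 and 2 to 5 in monocytes, 11 to 14 and 0 to 1 in neutrophils, 13 to 21 and 0 to 1 in B-cells, and 3 to 12 and 1 to 2 in T-cells. For LPS they were 2 to 20 higher and 4 to 10 lower in DMSO, 4 to 8 and 8 to 21 in inhibitors, and 0 to 6 for the difference, and for DMSO over inhibitors 6 to 15 in saline and 6 to 40 in LPS mice. Beside these, 16.4% to 22.2% and 12.9% to 17.7%, 16.2% to 23.5% and 11.6% to 19.9%, 0% to 0.0341%, 0.187% to 0.669%, and 0.0714% to 0.395% of all genes passed. The ranges for cycling cells and the 5 classes stand without such shares, so nothing is read from these ranges. In the lists they were 13 to 15 higher and 1 to 2 lower chaperones, 16 to 22 and 2 to 4 S-phase genes (0 to 2 lower in the difference) and 1 to 2 and 23 to 26 G2/M genes (0 to 1 lower in the difference). The lower chaperone count was 1 without saline inhibitors replicate 2, the higher G2/M count 1 without LPS inhibitors replicate 2, and both list differences arose without saline DMSO replicate 1. Single values whose sign turned ran from -0.66 to 0.22 for *H3c14* and -0.77 to 0.11 for *H2bc4* in cycling cells, from -0.021 to 0.34 for *H2ac18*, -0.34 to 0.042 for *H2bc6* and -0.24 to 0.11 for *H2bc4* in macrophages, from -0.68 to 0.084 for *H1f4* in monocytes, from -0.66 to 0.31 for *H1f4* in neutrophils, from -0.43 to 0.27 for *H1f2* in B-cells, and from -0.36 to 0.25 for *H2ac18*, -0.28 to 0.027 for *H2bc6* and -1.21 to 0.19 for *H2ac6* in T-cells.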
